A study of Homo sapiens with 6 samples.

Results

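The replication-dependent histone genes are the clustered genes that supply most of the histone protein of newly made chromatin. They were taken here as every gene whose symbol begins with HIST1H, HIST2H, HIST3H or HIST4H, which gave 71 of the 33514 gene symbols measured. No symbol was dropped as a numbered pseudogene, although HIST2H3PS2, whose name marks it as one, stayed in by the letter of that rule and had no reads. The 71 comprised 6 genes for the linker histone H1 and 65 for the core histones, of which 17 encode H2A, 18 H2B, 15 H3 and 15 H4. In the GENCODE annotation of GRCh38, 55 lie in the HIST1 cluster on chromosome 6, 12 in the HIST2 cluster and 3 in the HIST3 cluster, both on chromosome 1, and 1 on chromosome 12.

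The cells were PC3, an established line from a bone metastasis of a human prostate cancer. They were either left untreated (control) or kept with heme, the iron-porphyrin group of hemoglobin, at 50 µM for 2 h or for 4 h. RNA was sequenced from 2 libraries per group, 6 in all, and all groups share the same line and serum-containing medium. Whether the 2 libraries of a group came from separate cultures is not stated in the labels. The p-values therefore refer to the spread among these libraries only, which may be technical.

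A nucleosome is DNA wound on a core of H2A-H2B dimers and H3-H4 tetramers, and H1 binds where the DNA enters and leaves it. Most messages of the clustered genes lack introns and a poly(A) tail and end instead just after a short stem-loop in the 3′ end. The stem-loop binding protein SLBP holds this hairpin during processing and translation, and the messages are made in S phase and destroyed when DNA synthesis stops. Some of these genes can also make longer, polyadenylated messages that run past the stem-loop. Most replacement histones, by contrast, come from single genes with ordinary polyadenylated messages that are not confined to S phase.

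The hairpin is printed for 7 members on which the results turn, because the annotated 3′ ends of the members are compared further on. Each line is the RNA-sense strand of GRCh38 as annotated by GENCODE, 5′ to 3′, with the 16-base stem-loop in capitals.
HIST2H2BE, chr1:149886179-149886208, minus strand: ccaaaGGCTCTTTTCAGAGCCacccaccta
HIST1H2AC, chr6:26124664-26124693, plus strand: ccaaaGGCTCTTTTCAGAGCCcccctaccg
HIST2H2BF, chr1:149811876-149811905, minus strand: ccaaaGGCTCTTTTCAGAGCCacttcagta
HIST1H2AE, chr6:26217412-26217441, plus strand: ccaaaGGCTCTTTTCAGAGCCacccacctt
HIST1H2AG, chr6:27133510-27133539, plus strand: ccaacGGCTCTTTTCAGGGCCacccacgtc
HIST1H4H, chr6:26285122-26285151, minus strand: ccaaaGGCCCTTTTCAGGGCCgcccacttt
HIST1H4I, chr6:27139649-27139678, plus strand: aaaaaGGCCCTTTTTAGGGCCcctaagctt
A search of the transcript strand for the consensus histone stem-loop, which allows a choice of pyrimidine or purine at some positions, found it in the models of 26 of the 71 members. The form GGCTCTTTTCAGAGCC occurred in 17 genes of the H2A, H2B and H3 classes, and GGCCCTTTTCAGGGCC in 5 H4 genes. The form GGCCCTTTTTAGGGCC occurred in 3 H4 genes, and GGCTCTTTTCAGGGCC in HIST1H2AG alone among the members. Over all 19702 protein-coding genes, 34 held a match in their models.

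Each library had at least 53129375 and at most 55537611 reads assigned to genes. Levels are given as CPM, the counts of a gene scaled to library size with TMM factors. HMOX1, the gene of heme oxygenase, which breaks heme down, had 10.4 and 11.4 CPM in control, 451.2 and 327.5 CPM at 2 h, and 381.9 and 341.2 CPM at 4 h. The epithelial markers KRT8 and KRT18 were abundant and the prostate genes KLK3 and FOLH1 had no reads. Of 12 markers of other cells, HBB, HBA1 and HBA2 had no reads, 3 were tested and all 3 (CD14, PECAM1, COL1A1) rose at 2 h. The summed level of the 12 was 46.9 and 49.8 CPM in control, 91.1 and 76.2 CPM at 2 h and 46.1 and 51.4 CPM at 4 h, and the part of these genes in the results was not tested. The labels name an Illumina TruSeq kit and total RNA but do not say whether poly(A) RNA was selected. Selection would leave out most messages that end at the stem-loop. The member levels below may therefore be mainly those of polyadenylated messages, which was not tested. Of 12 listed RNAs that lack a poly(A) tail, 10 were not found by name among the gene symbols measured. TERC, the template RNA of telomerase, had between 0.952 and 1.72 CPM and RMRP between 0.0738 and 0.194 CPM.

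All members together took between 0.00958% and 0.0149% of a library's gene counts. The 4 most abundant of them in each library held between 52.1% and 55.8% of the member counts. An abundance filter left 34 members for testing, 32 of them core and 2 linker histones. The 37 members below it had at most 19 counts in any library and summed to between 44 and 54 counts per library, and 10 of them had no read in any library. The upper limit that a count of 0 allows, 3 counts, corresponded to at most 0.0565 CPM, by counting error only. The filter asks for reads in any group, so a member raised at 2 h could enter on its 2 h libraries alone. Per kilobase of exon in control cells, HIST1H2BK had 37.6 CPM, HIST1H1C 18.9 CPM, HIST1H2AC 12.3 CPM and HIST1H4I 5.61 CPM, while HIST4H4 had 0.0844 CPM. These lengths come from GENCODE, and the annotation used for counting is not given in the sources used here.

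Near-identical copies limit some of these values. In 14 members fewer than 20% of the 50-base stretches of the models were unique among annotated transcripts, and the files list no reads aligned to several places. Of the 14, 3 were tested (HIST1H2AJ, HIST1H4J, HIST2H4A), and the other 11 had at most 10 counts in a library. In 50 members more than 90% of the stretches were unique. HIST1H2BK stood at 25.9%. Exons of 15 members, 4 of them tested, overlap another gene, and since the strand setting is not given, reads of such partners cannot be told apart.

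After 2 h of heme, 6 core histone genes rose and none of the 34 tested members fell. The 6 were the H2B genes HIST2H2BE, HIST1H2BD and HIST2H2BF, the H2A genes HIST1H2AC and HIST1H2AG, and the H4 gene HIST1H4H. They make up 17.6% of the tested members, beside 15.9% of all 16209 genes called higher and 31.7% called in either direction at 2 h, so the share of higher members was near the background. Lower calls numbered 0 of 34 members, beside 15.8% of all genes. At an unadjusted p under 0.05, 10 members were higher and 0 lower, beside 3524 higher and 3389 lower of all 16209 genes. DESeq2 called 5 members higher and 0 lower, beside 2374 higher and 2745 lower of 15266 genes. A call means an adjusted p under 0.05 in the quasi-likelihood test of edgeR, with p-values adjusted by Benjamini-Hochberg over all tested genes. With unscaled library totals the split of all calls moved to 62.6% higher, against 50.2% with TMM scaling, and the members were again 6 higher and 0 lower. In bulk RNA, a change in the share of cells that express a gene and a change in its RNA per cell cannot be told apart.

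The calls depended on single libraries. Without control replicate 1 the higher count was 1, without control replicate 2 it was 2, and without 2 h replicate 1 it was 1, whereas without 2 h replicate 2 it was 11. Over all genes the percentage called at 2 h was 13.7, 17.7, 23.0 and 37.4 in the same 4 fits. At 2 h, replicate 1 stood above replicate 2 in 24 of the 34 tested members, beside 50% of all genes. HIST2H2BE was called in each of the 12 alternatives, HIST1H4H in 10, HIST1H2AC, HIST1H2AG and HIST1H2BD in 9 each and HIST2H2BF in 6. The largest adjusted p over these alternatives was 0.224 for HIST1H4H, 0.149 for HIST1H2AG, 0.12 for HIST1H2BD and 0.277 for HIST2H2BF.

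**Figure D1:**
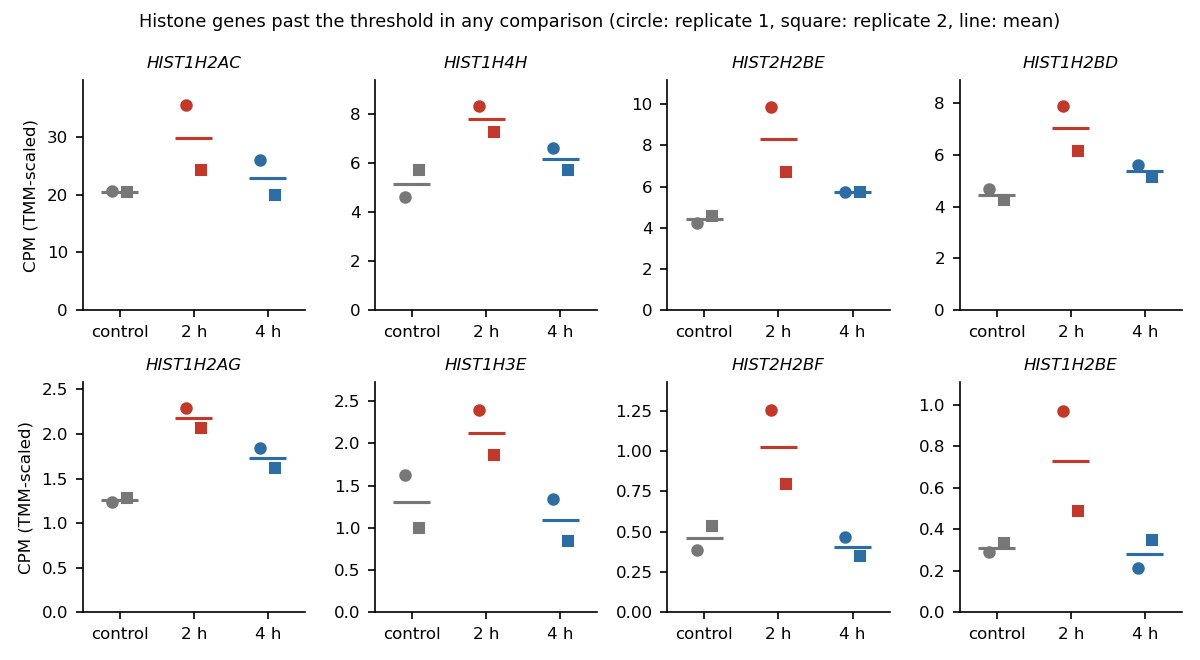
CPM (TMM-scaled) of the 8 histone genes past the threshold in any comparison, by group. Circles are replicate 1, squares replicate 2 and lines the mean of 2 libraries; 2 h replicate 1 is the highest library in each panel.

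The linker histones are described first. HIST1H1C, which encodes a somatic H1 that compacts chromatin between nucleosomes, had 11.5 and 12.8 CPM in control, 17.5 and 13.0 CPM at 2 h and 14.1 and 12.5 CPM at 4 h. Its 2 h libraries lay above both controls, replicate 2 only just, and its log2 fold change at 2 h was 0.33 (SE 0.16, edgeR adjusted p = 0.124, not called). HIST1H1E, another somatic H1, was near the filter with 0.0771 and 0.111 CPM in control, 0.317 and 0.122 CPM at 2 h and 0.174 and 0.184 CPM at 4 h, and it was not called. The other 4 H1 genes were below the filter.

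Among the H2A genes, HIST1H2AC was the most abundant member of all. It had 20.5 and 20.4 CPM in control, 35.4 and 24.2 CPM at 2 h and 25.9 and 19.99 CPM at 4 h. Both 2 h libraries were above the controls, while at 4 h one library was higher than them and the other just below. The log2 fold change at 2 h was 0.54 (SE 0.17, edgeR adjusted p = 0.0243). Over the 12 alternatives it ran between 0.24, without 2 h replicate 1, and 0.77, with adjusted p between 0.00018 and 0.254. HIST1H2AG had 1.23 and 1.28 CPM in control, 2.29 and 2.07 CPM at 2 h and 1.84 and 1.62 CPM at 4 h, with every heme library above both controls. Its log2 fold change at 2 h was 0.79 (SE 0.25, edgeR adjusted p = 0.0249).

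The other H2A genes did not pass the test. HIST3H2A, the H2A gene of the small HIST3 cluster, had 5.19 and 6.08 CPM in control, 9.04 and 6.34 CPM at 2 h and 6.53 and 6.16 CPM at 4 h (log2 0.45 at 2 h, SE 0.19, edgeR adjusted p = 0.0808). HIST1H2AE and HIST2H2AC had log2 values of 0.12 and 0.09 with overlapping libraries. HIST1H2AI had -0.37, and HIST1H2AJ, whose 2 h libraries lay below both controls, had -0.86 (edgeR adjusted p = 0.188).

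H2B was the class with the most tested genes, 13 of 18. HIST2H2BE, whose H2B message is known in polyadenylated form, had 4.24 and 4.58 CPM in control, 9.87 and 6.72 CPM at 2 h and 5.73 and 5.72 CPM at 4 h. All heme libraries were above both controls and the 2 h libraries were the highest. Its log2 fold change at 2 h was 0.91 (SE 0.19, edgeR adjusted p = 0.00269), and over the 12 alternatives it ran between 0.60 and 1.14 with adjusted p between 2.69e-05 and 0.0214. HIST1H2BD had 4.69 and 4.24 CPM in control, 7.90 and 6.16 CPM at 2 h and 5.60 and 5.13 CPM at 4 h. It followed the same order, with no overlap between 2 h and control (log2 0.66, SE 0.18, edgeR adjusted p = 0.0127).

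A scarce pair of H2B genes had the largest fold changes of the class. HIST2H2BF had 0.386 and 0.537 CPM in control, 1.25 and 0.799 CPM at 2 h and 0.465 and 0.350 CPM at 4 h, so that only the 2 h libraries stood out (log2 1.14, SE 0.40, edgeR adjusted p = 0.0389). DESeq2 did not call it at 2 h (adjusted p = 0.0789), and its exons overlap those of FCGR1A on the opposite strand. HIST1H2BE had 0.289 and 0.334 CPM in control, 0.970 and 0.486 CPM at 2 h and 0.213 and 0.350 CPM at 4 h. Its 2 h libraries were again the highest, with log2 1.22 (SE 0.48, edgeR adjusted p = 0.0664, not called), and its exons overlap those of AL353759.1 on the opposite strand.

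The abundant H2B gene HIST1H2BK behaved otherwise in value. It had 15.2 and 13.5 CPM in control, 17.1 and 13.6 CPM at 2 h and 14.9 and 14.2 CPM at 4 h, with overlapping groups (log2 0.10 at 2 h, SE 0.15, edgeR adjusted p = 0.626). HIST1H2BJ had a log2 value of 0.13 (SE 0.20) and HIST1H2BG one of 0.54 (SE 0.22, edgeR adjusted p = 0.0779), neither called. The HIST1H2BG libraries held 3.57 and 3.19 CPM in control, 6.13 and 3.72 CPM at 2 h and 4.397 and 4.20 CPM at 4 h, so every heme library exceeded both controls. Of the remaining H2B genes, HIST1H2BL and HIST1H2BH had negative log2 values, -0.33 and -0.05, and none was called.

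No H3 gene was called at 2 h, and 5 of 15 were tested. HIST1H3E had 1.62 and 1.001 CPM in control, 2.397 and 1.86 CPM at 2 h and 1.34 and 0.848 CPM at 4 h (log2 0.70 at 2 h, SE 0.31, edgeR adjusted p = 0.0961). The 2 h libraries were the highest and those of control and 4 h overlapped. HIST1H3H had a log2 value of 0.40, and HIST1H3C, with both 2 h libraries below both controls, one of -0.80.

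Among 7 tested H4 genes, HIST1H4H was called. It had 4.61 and 5.71 CPM in control, 8.34 and 7.26 CPM at 2 h and 6.60 and 5.72 CPM at 4 h, with both 2 h libraries above every other (log2 0.60, SE 0.17, edgeR adjusted p = 0.0182). The more abundant HIST1H4I had 7.10 and 7.43 CPM in control, 7.44 and 6.27 CPM at 2 h and 7.73 and 7.38 CPM at 4 h. Its groups overlapped (log2 -0.08, SE 0.16, edgeR adjusted p = 0.724). HIST1H4C and HIST4H4 had log2 values of -0.56 and -1.16 with the 2 h libraries below both controls, and neither was called.

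**Figure D2:**
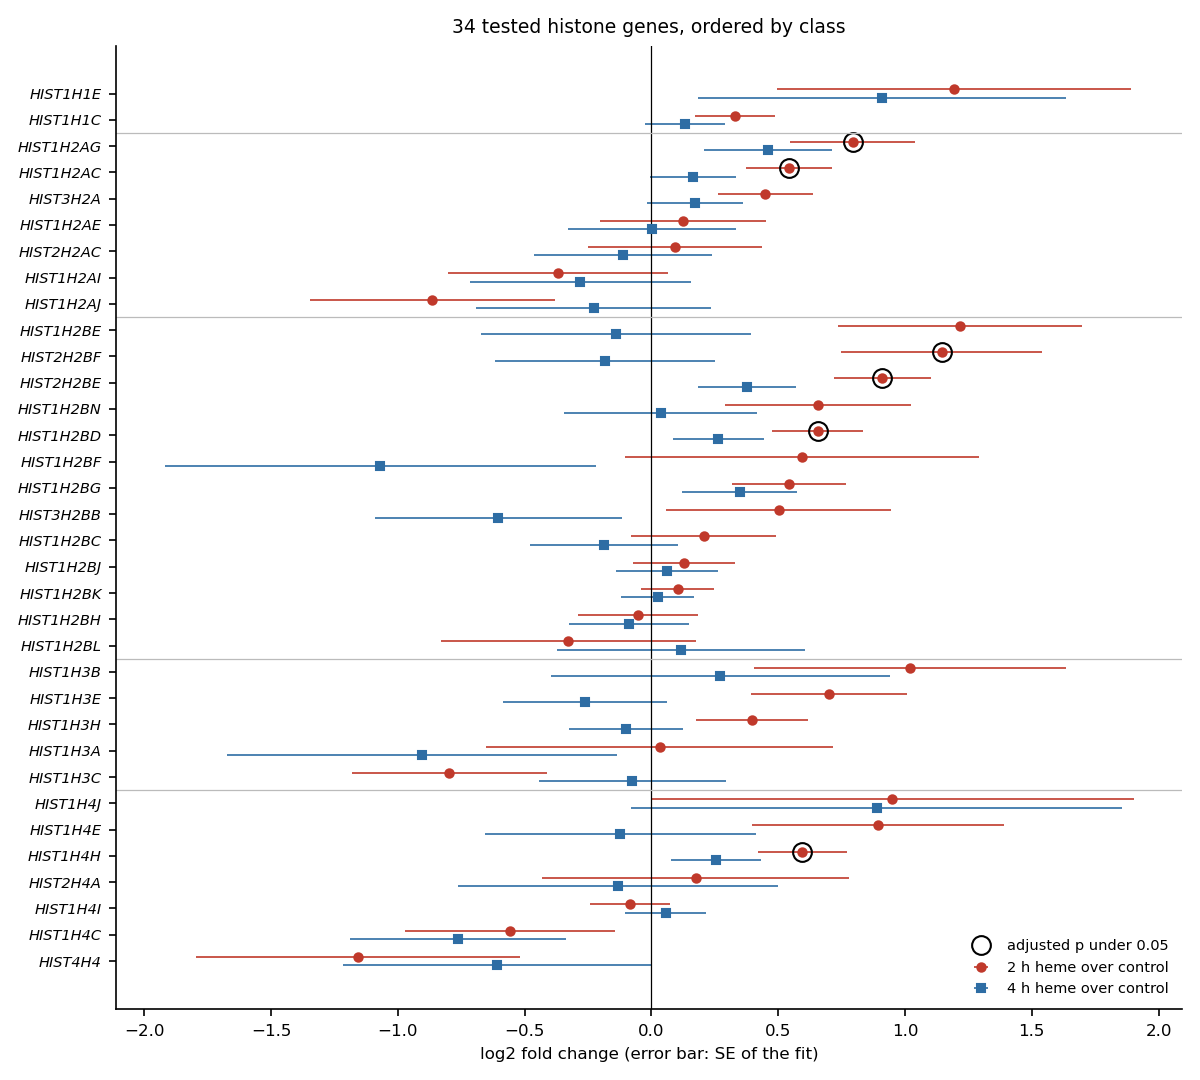
Log2 fold changes of the 34 tested histone genes at 2 h (circles) and at 4 h (squares) over control, with the SE of the edgeR fit as bars, grouped from top to bottom as H1, H2A, H2B, H3 and H4. Black rings mark the 6 genes past the threshold at 2 h; no 4 h value passed it, and 26 of the 2 h values but 17 of the 4 h values are positive.

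Over all 34 tested members the median log2 fold change at 2 h was 0.42, with 26 positive and 8 negative values between -1.16 and 1.22. The median over all tested genes was 0.02, with 51.6% positive. Both 2 h libraries lay above both controls in 17 members and below both in 4, and in 13 the groups overlapped. The same count was not made over all genes, so it does not set the members apart. Core histones had 6 of 32 higher and a median of 0.42, and linker histones 0 of 2. By class, the median was 0.76 for the 2 H1 genes, 0.12 for H2A, 0.54 for H2B, 0.40 for H3 and 0.17 for H4. These medians describe genes that passed the filter, and differences between classes were not tested.

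Summed over all 71 members, the level was 98.1 and 98.8 CPM in control, 145.5 and 111.5 CPM at 2 h and 112.3 and 100.4 CPM at 4 h. The mean at 2 h was 1.30 times, and that at 4 h 1.08 times, the control mean. The H2A sum had the highest ratio at 2 h, 1.398, with 29.8 and 31.0 CPM in control and 49.3 and 35.7 CPM at 2 h. The H2B sum was 38.1 and 34.9 CPM in control and 54.0 and 41.3 CPM at 2 h. The H3 sum, the smallest, was 4.92 and 4.67 CPM in control, 5.92 and 6.08 CPM at 2 h and 4.80 and 3.96 CPM at 4 h, and its 2 h libraries were close to each other. The H4 sum had the lowest ratio at 2 h, 1.16, and 2 h replicate 2 (15.3 CPM) was level with control replicate 2 (15.3 CPM). The H1 sum was 11.7 and 12.9 CPM in control and 18.0 and 13.2 CPM at 2 h. In the sum over all members and in each sum but that of H3, 2 h replicate 1 was the highest library.

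**Figure D3:**
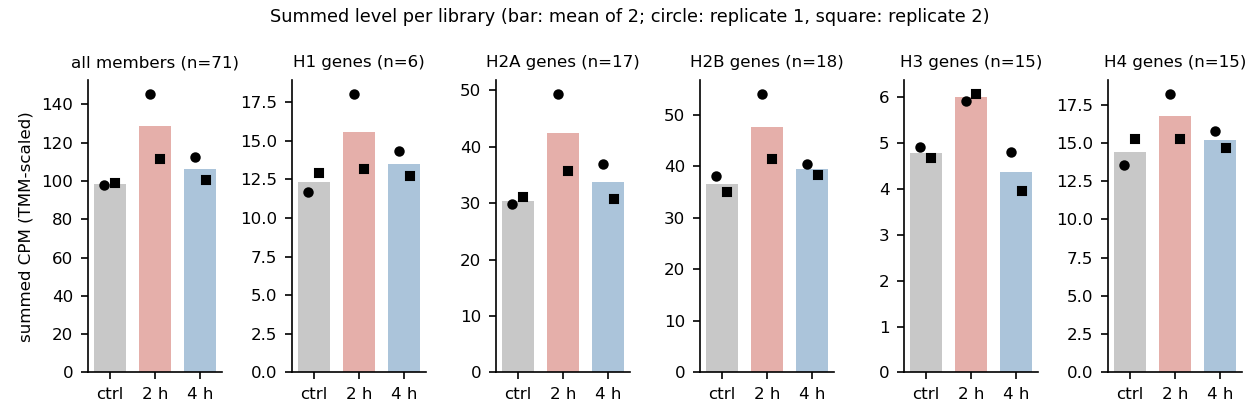
Summed CPM (TMM-scaled) of all 71 histone genes and of each class, by group; bars are the mean of 2 libraries, circles replicate 1 and squares replicate 2. The 2 h bar is the highest in each panel, and for all members its libraries lie at 145.5 and 111.5 CPM.

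The members were next divided by the 3′ end of their models. A model counted as extended when it was spliced or ran at least 100 bases past the stem-loop; this held for 24 members, 20 of them tested. All 6 genes higher at 2 h were extended, 30% of the 20 tested, and 0 of the 14 other tested members were called, beside 15.9% of all genes called higher. Of these 14, only 4 have models that end within 100 bases of the stem-loop. The other 10 have single-exon models without it, which do not show an end relative to the hairpin. Among the tested extended genes, HIST1H2BC, HIST1H2BD, HIST1H2BJ and HIST1H3E also lack it in their models. They counted as extended by splicing alone. The 14 also had the lower median level, and of 15 members with a mean of at least 1 CPM, 13 were extended. The stem-loop of HIST2H2BE printed above, for example, is followed by 1729 annotated bases, that of HIST1H2AG by 1761 and that of HIST1H4H by 1655. By contrast, 51 annotated bases follow the hairpin of HIST1H2AE, whose log2 value was 0.12. A cut-off of 500 bases, chosen after the data were seen, again counted all 6 called genes as extended, among 18 tested. This could not come out otherwise. Spliced models counted at any cut-off, which kept HIST1H2BD, and in each other called gene more than 500 bases follow the hairpin.

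The median log2 at 2 h was 0.54 for the 20 extended genes and 0.10 for the 14 others. The summed level of the extended genes was 65.2 and 66.3 CPM in control, 105.4 and 79.0 CPM at 2 h and 77.8 and 68.0 CPM at 4 h. That of the others was 32.9 and 32.6 CPM in control, 40.1 and 32.6 CPM at 2 h and 34.5 and 32.4 CPM at 4 h, so that 2 h replicate 2 was level with control. Most of this second sum came from HIST1H2BK (mean 14.33 CPM in control) and HIST1H1C (mean 12.15 CPM in control). Both are known for polyadenylated messages, so the sum does not stand for messages that end at the stem-loop. The extended genes were also longer in their models (median 1968 against 423 bases of exon among tested genes) and more abundant (median 2.17 against 0.459 CPM). The part of depth in the difference was not tested, nor was the difference between the sets.

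Models are an imperfect guide to the messages made. Of 7 histone genes known for polyadenylated messages, HIST1H1C and HIST1H2BK have single-exon models without the hairpin and fall among the others. Of these 7, 3 were called higher at 2 h (HIST1H2AC, HIST1H2BD, HIST2H2BE), with a median log2 of 0.33, and 0 lower. Of 4 histone genes known from the testis (HIST1H1T, HIST1H2AA, HIST1H2BA, HIST3H3), 0 passed the filter. The deposited counts hold no positions along a gene, so reads before and after the stem-loop could not be compared.

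**Figure D4:**
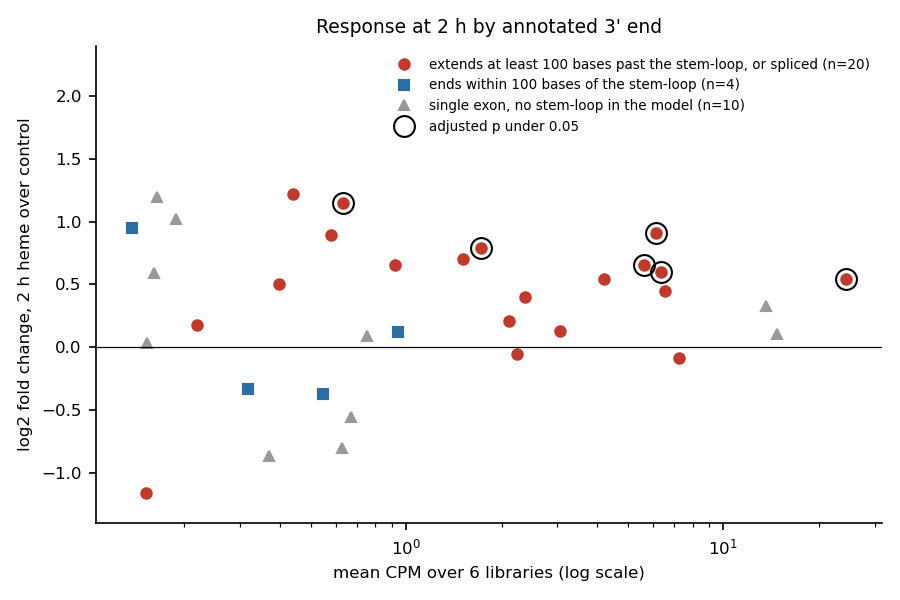
Log2 fold change at 2 h over control against mean CPM over 6 libraries (log scale) for the 34 tested histone genes, by annotated 3′ end. The 6 ringed genes past the threshold all belong to the extended class (circles), which also reaches further to the right than the 4 genes ending near the stem-loop (squares).

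Many H2A and H2B genes lie head to head and share the stretch between their start sites. Within 500 bases, 12 such pairs were found, 1 of them of an H3 and an H2B gene, with starts 219 to 357 bases apart, and in 6 both genes were tested. In 3 of the 6, 1 partner was called higher at 2 h, and in 0 both. HIST2H2BE (log2 0.91, SE 0.19) lies 323 bases from HIST2H2AC (log2 0.09, SE 0.34). HIST1H2AG (log2 0.79, SE 0.25) lies 292 bases from HIST1H2BJ (log2 0.13, SE 0.20), and HIST1H2AC (log2 0.54, SE 0.17) lies 219 bases from HIST1H2BC (log2 0.21, SE 0.28). The gap between partners was not tested in any pair. In HIST3H2A and HIST3H2BB (0.45 and 0.50) and in HIST1H2AI and HIST1H2BL (-0.37 and -0.33) the log2 values of partners were close, with neither called.

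**Figure D5:**
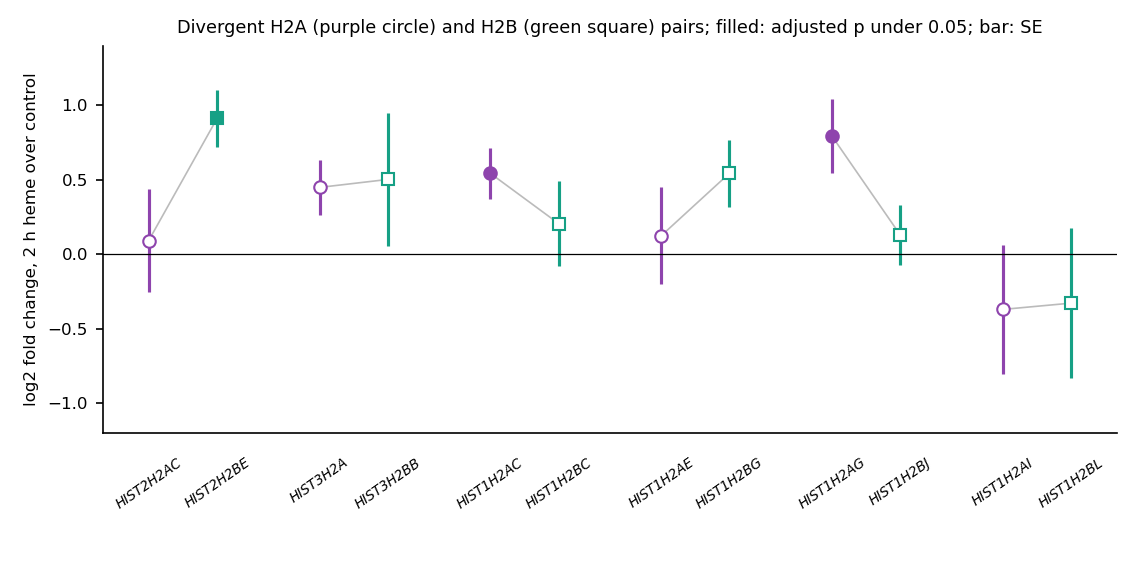
Log2 fold change at 2 h over control, with the SE of the edgeR fit as bars, for the 6 head-to-head pairs in which both genes were tested; H2A genes are circles, H2B genes squares, and grey lines join partners. Filled symbols are past the threshold, and in none of the 6 pairs are both filled.

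The 250 bases upstream of the called gene are shown for the pairs of HIST2H2BE and HIST1H2AG because they are DNA that the partners share. They are from RefSeq on GRCh38.p14, 5′ to 3′ on the gene's strand, and capitals mark the letters ATTTGCAT (the octamer), TATAAA and CCAAT on either strand; TATAAA matches on opposite strands can overlap.
HIST2H2BE, chr1:149886683-149886932, minus strand: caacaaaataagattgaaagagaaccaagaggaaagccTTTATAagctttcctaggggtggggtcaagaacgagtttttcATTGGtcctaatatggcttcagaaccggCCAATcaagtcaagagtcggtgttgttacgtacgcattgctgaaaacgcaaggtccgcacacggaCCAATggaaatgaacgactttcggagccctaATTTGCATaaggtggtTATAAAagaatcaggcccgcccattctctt
HIST1H2AG, chr6:27132793-27133042, plus strand: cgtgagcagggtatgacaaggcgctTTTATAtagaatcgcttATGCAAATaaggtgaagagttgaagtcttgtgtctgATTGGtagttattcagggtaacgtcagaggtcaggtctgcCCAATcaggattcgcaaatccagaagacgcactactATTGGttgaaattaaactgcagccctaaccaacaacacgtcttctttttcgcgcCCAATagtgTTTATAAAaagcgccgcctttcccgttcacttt
RefSeq promoters were matched for 61 of the 71 members. The octamer, a letter pattern bound by POU-domain factors and known from H2B promoters, occurred in 20 of the 61 (32.8%), beside 1.63% of all 35116 promoters. All 20 belonged to the 29 H2A and H2B genes with a promoter (69.0%). TATAAA occurred in 67.2% of member promoters beside 10.7% of all, and CCAAT in 83.6% beside 32.0%. The octamer was present in 4 of the 6 genes called higher at 2 h and in 6 of the 23 tested genes with a promoter that were not called. Since matches on either strand count, a site between head-to-head partners can be counted for both. HIST2H2AC and HIST1H2BJ, the uncalled partners of HIST2H2BE and HIST1H2AG, also had an octamer. Of the 6 called, 5 belong to the H2A and H2B classes, where the octamer is common, and the difference between these shares was not tested.

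After 4 h of heme, 0 of the 34 tested members were called higher and 0 lower than control by edgeR's quasi-likelihood test, and 37 members were not tested. None of the 34 had an unadjusted p under 0.05, and DESeq2 called none. Over all 16209 genes, 313 were higher and 270 lower at that unadjusted p, and DESeq2 called 15 genes. Over all genes, 0.0308% were called at 4 h (0.0247% higher and 0.00617% lower), which is 5 genes, namely HMOX1, ALAS1, CYP1B1, GCLM and ZNF469. The median log2 of the members at 4 h was -0.04, with 17 positive and 17 negative values. Both 4 h libraries lay above both controls in 7 members and below both in 5, and in 22 the groups overlapped. For this count, too, no value over all genes was made, so it shows no remaining change of the members. The 2 h and 4 h comparisons share the control libraries, so their values are given side by side. For HIST2H2BE the log2 value was 0.91 at 2 h and 0.38 at 4 h (SE 0.19), for HIST1H2AG 0.79 and 0.46 (SE 0.25), and for HIST1H4H 0.60 and 0.26 (SE 0.18). For HIST2H2BF it was 1.14 at 2 h and -0.18 at 4 h (SE 0.43).

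Set against 2 h, 4 members fell at 4 h and none rose. The 4 of 34 stand beside 14.1% of all genes called lower, 14% called higher and 28.1% called either way. This comparison shares the 2 h libraries with the comparison of 2 h and control. HIST2H2BF fell by 1.33 on the log2 scale (SE 0.40, edgeR adjusted p = 0.0233) and HIST1H2BE by 1.36 (SE 0.49, edgeR adjusted p = 0.0496). HIST1H3E fell by 0.96 (SE 0.31, edgeR adjusted p = 0.0327) and HIST2H2BE by 0.53 (SE 0.19, edgeR adjusted p = 0.0463). In HIST2H2BF, HIST1H3E and HIST2H2BE, as in HIST1H2BE, both 4 h libraries lay below both 2 h libraries. DESeq2 called 2 of the 34 lower, without HIST2H2BE (adjusted p = 0.0505) and HIST1H2BE (adjusted p = 0.0963), and 8 were lower at an unadjusted p under 0.05. Over all genes, 3315 of 16209 were lower at that unadjusted p, and DESeq2 called 2035 of 14952 lower. The number called fell without 2 h replicate 1, either 4 h replicate or control replicate 2, and rose without 2 h replicate 2. Calls over all genes fell and rose in the same fits. Without 2 h replicate 1, the log2 values were -0.97 for HIST2H2BF, -0.775 for HIST1H2BE, -0.76 for HIST1H3E and -0.23 for HIST2H2BE. Over the 12 alternatives HIST2H2BF and HIST1H3E were called lower in 9 each, HIST1H2BE in 5 and HIST2H2BE in 3.

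The genes around the histone genes in their pathway were counted in the same fit, from lists by known function. Their counts at 2 h stand beside 15.9% of all genes called higher and 15.8% called lower, and no list was tested as a set. Replacement histones went both ways at 2 h, with 3 of 12 higher and 4 lower and a median log2 of -0.13. H1F0, the linker histone of resting and differentiated cells, had 134.2 and 152.7 CPM in control, 329.7 and 282.1 CPM at 2 h and 126.5 and 127.4 CPM at 4 h. Its 2 h libraries stood far above the other 4 (log2 1.09, SE 0.11, edgeR adjusted p = 7.35e-06). The linker histone H1FX rose by 0.87 and the macroH2A gene H2AFY2 by 0.32 on the log2 scale. H2AFY2 was near the threshold (edgeR adjusted p = 0.0413) and lost its call without the filter on low counts. With a replicate block, too, 2 replacement histones rather than 3 were called higher, and most fits that left out a library also called fewer. Lower were H2AFZ (log2 -0.45) and H2AFV (log2 -0.31), which encode H2A.Z forms, H3F3B (log2 -0.26), which encodes the replacement H3, and CENPA (log2 -0.56), the H3 of centromeres. H2AFV and H3F3B lost their calls with unscaled library totals.

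Factors that transcribe and process histone messages had 0 of 21 genes higher and 11 lower at 2 h, with a median log2 of -0.37. SLBP, which binds the hairpin printed above, had 103.6 and 101.3 CPM in control, 59.6 and 70.4 CPM at 2 h and 102.3 and 89.5 CPM at 4 h. Both 2 h libraries were the lowest (log2 -0.66, SE 0.11, edgeR adjusted p = 0.000598). CCNE1, the cyclin that activates CDK2 at the start of S phase, had a log2 value of -1.05 (SE 0.14). SRRT, which links the cap-binding complex to 3′ end processing, had -0.56 (SE 0.10), and CSTF2, a cleavage stimulation factor, had -0.50 (SE 0.11). The 11 genes lower at 2 h were the 11 called higher at 4 h against 2 h, in a comparison that shares the 2 h libraries.

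Factors that degrade histone messages had 0 of 14 higher and 7 lower at 2 h (median log2 -0.28). The decapping enzyme DCP2 had a log2 value of -0.74 (SE 0.14), and the subunits LSM3, LSM6 and LSM1 of the LSM ring had -0.63, -0.45 and -0.53. With unscaled library totals the lower count was 4. At 4 h against 2 h, DCP2, EXOSC10, LSM3 and UPF1 were higher.

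Histone chaperones had 2 of 24 higher and 5 lower at 2 h (median log2 -0.19), the lower share being near that of all genes. HJURP, which loads CENP-A at centromeres, had 110.3 and 100.3 CPM in control, 24.4 and 34.6 CPM at 2 h and 92.1 and 100.1 CPM at 4 h. The 2 h libraries were far below all others (log2 -1.83, SE 0.14, edgeR adjusted p = 1e-06). HAT1, which acetylates new H4, had a log2 value of -0.56, DAXX -0.36, HIRA -0.42 and NAP1L4 -0.27, the last 2 without a call under unscaled totals. ASF1B, a carrier of new H3-H4, had 0.37 and CABIN1, a partner of HIRA, 0.40. Both were called higher, but neither was called when either control library was left out.

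DNA replication genes had 0 of 41 higher and 19 lower at 2 h (median log2 -0.31), CCNE1 and CCNE2 being counted in this list as well. GMNN, the licensing inhibitor geminin, had a log2 value of -1.24 (SE 0.13), GINS3, a subunit of the replicative helicase, -0.92 (SE 0.13), and RRM2, a ribonucleotide reductase subunit, -0.92 (SE 0.13). The summed level of the 41 genes was 2916 and 2830 CPM in control, 2035 and 2537 CPM at 2 h and 2703 and 2781 CPM at 4 h, and both 2 h libraries were the lowest. At 4 h against control, edgeR called 0 genes in any of these 5 lists, with 0 at an unadjusted p under 0.05 and 0 by DESeq2.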

How the data were processed

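RNA of 6 PC3 libraries was measured, 2 per group. The deposited values are raw counts per gene symbol in the layout of HTSeq. The submitters' processing notes name hg38, STAR, Trimmomatic, SAMtools and deepTools; not given in the sources used here are versions, annotation, strand setting and read layout. The 5 summary lines were left out of library totals: reads outside genes were 5.48% to 6.88%, ambiguous reads 4.23% to 4.48%.

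edgeR 4.0.16 in R 4.3.3 was run on all 6 libraries (TMM, filterByExpr with minimum count 10, quasi-likelihood test, Benjamini-Hochberg over 16209 genes, threshold 0.05, 3 residual degrees of freedom). The SE of a fold change was derived from its F statistic. Alternatives were DESeq2 1.42.0, its size factors, unscaled totals, no filter, a replicate block, only the groups compared, and leaving out each library. Replicates differed beyond sampling noise (chi-square per gene 8.86 to 34.4). The gene test was tested on simulated counts.

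All 71 symbols matched GENCODE release 29, which gave coordinates, models and stem-loops (consensus pattern of 16 bases). Members and lists were chosen with earlier results of these data known. Named were all members called in any comparison, the 10 most abundant, and in each related list the 4 of smallest p at 2 h plus called genes where 5 or fewer were called in a direction; others are named as lists or examples after their values were seen. Intervals and floors cover counting error only.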

Additional observations from a re-analysis of the deposited data

Results flagged for a closer look

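The results below passed the test of 4 h against 2 h itself (edgeR's quasi-likelihood test, adjusted p under 0.05), which is what marked them. Values are log2 fold changes of 4 h over 2 h, from 2 libraries per group. This comparison shares the 2 h libraries with that of 2 h and control.

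Among the histone genes, HIST1H2BE had -1.36, HIST2H2BF -1.33, HIST1H3E -0.96 and HIST2H2BE -0.53. Of 12 alternatives, HIST2H2BE was called in 3 and HIST1H2BE in 5, and DESeq2 called neither (adjusted p = 0.0505 and 0.0963). Among the replacement histones, the linker histones H1F0 and H1FX had -1.27 and -0.95, and CENPA had 0.48. Among factors of histone transcription and processing, CCNE1 had 1.22, SRRT 0.62, SLBP 0.56 and CSTF2 0.51. Among decay factors, DCP2 had 0.57, LSM3 0.41, UPF1 0.32 and EXOSC10 0.29. Among chaperones, HJURP had 1.70, HIRA 0.59, CHAF1A 0.37, DAXX 0.36, NAP1L4 0.26 and ASF1B -0.50. Among replication genes, GMNN had 1.09, GINS3 0.98, RRM2 0.78 and POLA2, a subunit of DNA polymerase alpha, -0.55.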

How the results depend on the processing

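HIST2H2BE was higher at 2 h in all 12 alternatives run for it. The count of histone genes higher at 2 h was 6 with size factors, unscaled totals, a replicate block and only the compared groups, 5 with DESeq2 and 7 without a filter; leaving out a library gave 1 to 11. No setting called a member lower at 2 h or called one at 4 h against control. Leaving out a library moved the number of members lower at 4 h than at 2 h, as it moved calls over all genes. That number was 4, but 2 with size factors, 2 with DESeq2 and 2 with the replicate block. With the block, HIST2H2BE and HIST1H2BE lost this call (adjusted p = 0.0502 and 0.0586). Same-numbered replicates did not deviate together (correlations -0.0908, 0.065 and -0.0162) and share only a number.

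With unscaled totals at 2 h, lower counts were 2 for replacement histones, 4 for decay and 3 for chaperones, and higher counts were 1 for processing and 1 for replication. At 4 h against 2 h, unscaled totals gave 4 lower replacement histones, 2 higher decay factors, and 3 higher and 2 lower chaperones. DESeq2 gave 2 higher replacement histones and 7 higher decay factors, no filter 2 higher replacement histones, and only the compared groups 3 higher chaperones. Unscaled, the summed CPM of all members in control was 96.79 and that of H3 genes at 2 h 6.19. The cause of these shifts was not tested.

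Leaving out a library moved the following counts at 2 h: 2 to 4 lower replacement histones, 5 to 12 lower and 0 to 1 higher processing factors, 2 to 8 lower and 0 to 1 higher decay factors, 2 to 11 lower and 0 to 3 higher chaperones, and 11 to 29 lower and 0 to 1 higher replication genes. At 4 h against 2 h it gave 0 to 2 higher and 2 to 4 lower replacement histones, 5 to 12 higher processing factors, 1 to 8 higher and 0 to 1 lower decay factors, 2 to 8 higher and 0 to 2 lower chaperones, and 12 to 23 higher and 0 to 3 lower replication genes. The lowest 2 h counts of lower genes came without control replicate 1 and the highest without 2 h replicate 2. Lower calls over all genes at 2 h were fewest and most in the same fits. At 4 h against 2 h, calls over all genes moved with the library left out as well. Whether any list moved beyond this background was not tested. HIST1H2BK changed sign at 2 h without control replicate 2 (-0.0038) and without 2 h replicate 1 (-0.0753), in a log2 range up to 0.2368, and HIST1H4I without 2 h replicate 2 (0.0118), in a range down to -0.2156. The 37 members under the filter had at most 19 counts in a library; 61 members were tested when the filter was dropped.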
